A study of Mus musculus with 230 samples.

Results

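Among 68 single mouse sensory neurons with RNA counts, 11 drew more than 20% of their counts from the mitochondrial genome, and these 11 cells are described here. The share was the sum of all genes whose symbol begins with mt-, divided by the endogenous counts outside CT010467.1, a ribosomal RNA-like feature that took 14.4% to 99.5% of the endogenous counts of single cells. The other 57 cells, at 20% or less, served as the comparison. The mitochondrial share chose the cells, so that share is given as a description and no test was made on it.

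The study used C57BL/6 X CAST/Ei mice, a cross of 2 inbred strains, with an operated sciatic nerve or an intact one. Neurons were picked by hand from enzymatically dissociated L4 and L5 dorsal root ganglia, the clusters of sensory cell bodies whose axons run in that nerve. The nucleus of each cell was removed for DNA methylation sequencing, and RNA was read by SMART-seq2, a full-length cDNA method, from the cytoplasm that remained. Every animal in every group carried the same cross, and the labels give no time after injury and no animal for any cell. The 4 groups of cells were 21 injured and 18 intact cells at 1 month of age, and 21 injured and 8 intact cells at 1 year. Another 18 low-input RNA libraries, 3 for each condition at 1, 8 and 12 months, were made from sensory neurons of the same cross. Because no animal is named, each labelled group of cells was treated as 1 sample: values are given per cell, as medians and ranges, without p-values between cells.

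Mitochondrial RNA comes from a small circular genome that encodes ribosomal RNAs, transfer RNAs and subunits of the respiratory chain, and it sits inside the mitochondria of the cytoplasm. A high share of it is widely used as a warning sign in single-cell work, because a cell that has lost cytoplasmic messenger RNA can keep its mitochondria. In the dorsal root ganglion each neuronal cell body is wrapped by satellite glial cells, and its axon is wrapped by Schwann cells, so both glial types lie against a neuron that is picked by hand. The labels call all of these cells sensory neurons.

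The mitochondria-rich cells came from all 4 groups. They were 3 of 21 injured cells at 1 month (L4R8M, L4R1 and L4R11M), 3 of 18 intact cells at 1 month (L4L8M, L4L4M and L4L3M), 4 of 21 injured cells at 1 year (R12L, R5L, R10S and R8S), and 1 of 8 intact cells at 1 year (L2). Their mitochondrial share was 68.3% in L4R8M, 60.6% in L4R1, 51.1% in L4L8M, 43.3% in L2, 42.5% in L4L4M, 36.9% in L4R11M, 35.5% in R12L, 25.1% in R5L, 25.02% in R10S, 23.9% in R8S and 23.8% in L4L3M. The other cells ranged from 0.0828% to 18.95%, with a median of 1.69%. Just below the threshold lay R9M at 18.95%, L5R1M at 12.8% and R6M at 11.5%. The shallow L4L3M rested on 1284 mitochondrial counts of 5403, with an exact 95% binomial interval of 22.6% to 24.9%. For R9M the interval was 18.89% to 19.02%, so counting error did not bring either cell across the threshold. These intervals cover counting error only, since the reads carry no molecular identifiers.

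**Figure D1:**
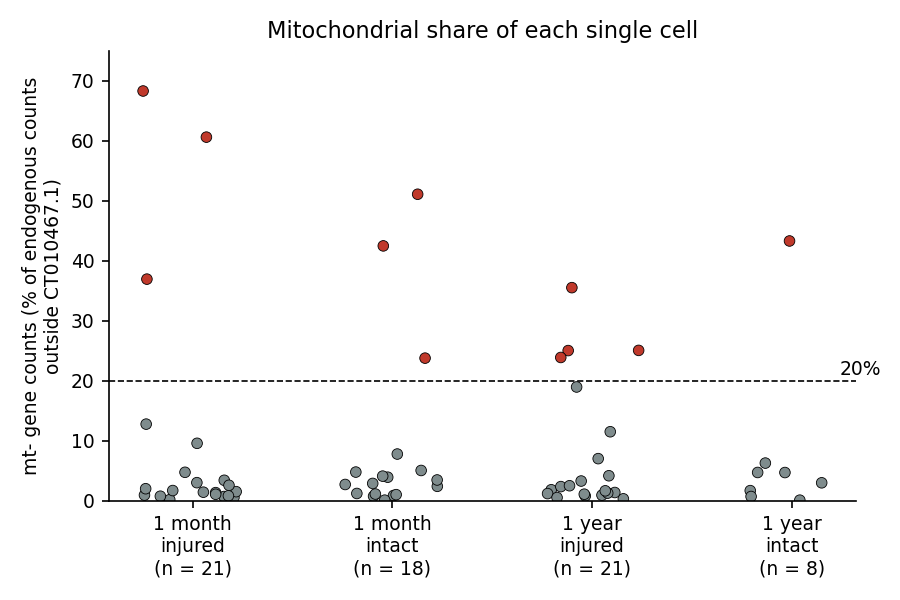
Mitochondrial share of each single cell (vertical axis, percent of endogenous counts outside CT010467.1) by age and nerve condition; each point is 1 cell, red above and grey at or below the dashed 20% line, with horizontal jitter only to separate points. Each of the 4 groups holds red points, 3, 3, 4 and 1 from left to right, and the highest grey point is R9M at 18.95%.

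The deposit itself set these cells apart. The names of all 11 had 1 RNA sample in the labels, against 21 of the 57 other cells, while the other 36 had several RNA samples merged into 1 column. At 1 year, all 5 mitochondria-rich cells had 1 RNA sample and 22 of the 24 others had several. Among single-cell names at 1 year, those with a sample number over 200 in their title were the 5 mitochondria-rich cells and a cell without counts. The number and the mitochondrial share therefore cannot be told apart at that age. At 1 month, all 6 mitochondria-rich cells had names beginning L4, of 25 such cells, and none of the 14 names beginning L5 was among them. Their title numbers were 173 to 201, against first numbers of 22 to 209 (median 78) in the 33 others. Most of the others thus began lower, so number and mitochondrial share are hard to separate at 1 month too, though not fully tied. L4R15M (number 180, share 1.41%), L5R1M (186, 12.8%), L4L12S (202, 1.20%) and L5L22m (209, 4.77%) also had 1 RNA sample and stayed under the threshold. The labels do not say what the numbers or the single deposit stand for.

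The 11 cells fell into 2 kinds by depth, which followed age. Nuclear-encoded counts, meaning endogenous counts without mt- genes and CT010467.1, were 4119 in L4L3M, 5278 in L4R11M, 5938 in L4R1, 38003 in L4R8M, 69285 in L4L4M and 131040 in L4L8M at 1 month. At 1 year they were 2057153 in R5L, 2637007 in R12L, 2677933 in R10S, 2866391 in R8S and 3548384 in L2. The 2 ranges were far apart, and only the 1-year cells were as deep as typical neurons of this series, whose nuclear-encoded counts ranged from 274 to 22354272 with a median of 2805392. The 2 kinds are described separately.

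At 1 month the mitochondria-rich cells were close to empty of nuclear-encoded messages. Genes with at least 1 count numbered 104 in L4L3M, 301 in L4R11M, 447 in L4R1, 550 in L4L4M, 595 in L4R8M and 1128 in L4L8M. The 33 other cells of that age had 2130 to 14750, with a median of 11349, so the groups did not overlap. Depth differed too: the others had a median of 998457 nuclear-encoded counts. Among the 8 other cells with no more counts than the deepest mitochondria-rich cell (4314 to 120256), genes detected still ranged from 2130 to 9284, with a median of 6740. L5R1M and L4L3M make the closest pair: 4314 counts covered 2130 genes in the former, and 4119 counts covered 104 genes in the latter. With counts thinned to 20000 per cell, the 3 mitochondria-rich 1-month cells deep enough had 400 (L4L4M), 482 (L4R8M) and 864 (L4L8M) genes, against 2787 to 5407 in 32 others. Their messages were thus fewer and more often repeated than depth alone gave in the other cells, and the 10 most abundant genes took 15.2% to 60.1% of nuclear-encoded counts (median 21.1%) against 4.98% to 17.3% (median 7.73%).

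**Figure D2:**
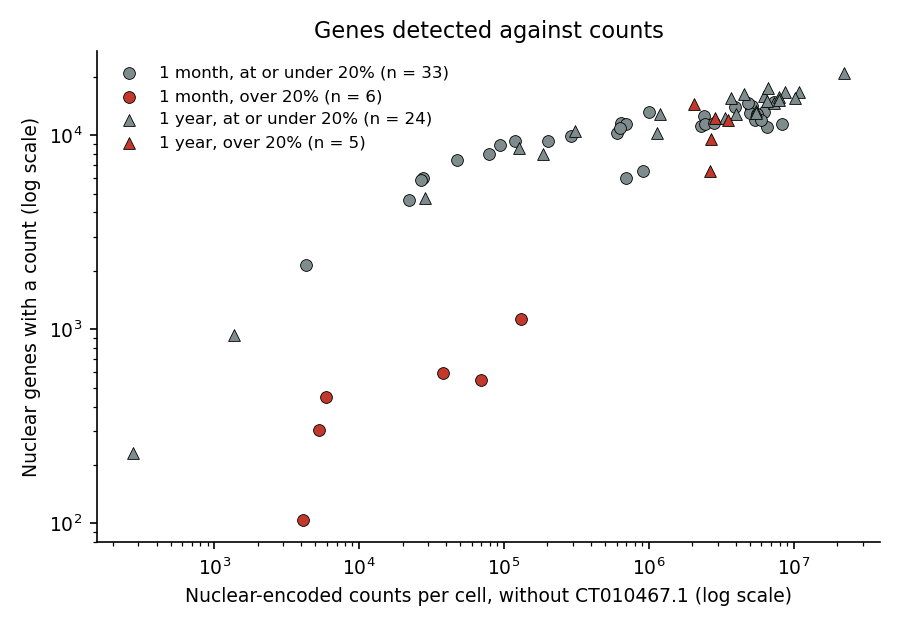
Nuclear genes with at least 1 count (vertical, log scale) against nuclear-encoded counts (horizontal, log scale) for the 68 cells; red marks cells over 20% mitochondrial share, circles 1 month and triangles 1 year. The 6 red circles, with 104 to 1128 genes, lie below grey points of like depth. Of the red triangles, R5L, R8S and L2 lie among deep grey cells, while R10S has 9566 genes and R12L has 6550.

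Spike-in RNA gave a second view of the 1-month cells. ERCC transcripts, synthetic RNAs added before library construction, had 7821529 to 37244757 counts in the 6 mitochondria-rich cells (median 23621268) and 3419 to 37595326 in the 33 others (median 730295). Per 1000 ERCC counts, nuclear-encoded counts were 0.137 to 5.73 (median 1.16) in the mitochondria-rich cells and 0.300 to 18049 (median 2386) in the others, a difference of medians of −11.1 on the log2 scale. Mitochondrial counts per 1000 ERCC counts were 0.0429 to 5.98 (median 1.27) against 0.0439 to 367.5 (median 47.1), a difference of −5.22. Both kinds of RNA were therefore lower per spike-in count in the mitochondria-rich cells. The larger difference of the nuclear-encoded kind follows from the rule that chose the cells. Both values share the same spike-in denominator, so that contrast is not a separate result. The reading assumes the same amount of spike-in in every cell. The 1-year cells had 0 to 8 ERCC counts and allow no such reading.

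What remained in the 1-month cells was uneven from cell to cell. Lars2, the mitochondrial leucyl-tRNA synthetase gene, which is placed here among the ribosomal RNA-like features, was the most abundant nuclear gene in L4L4M (56852 CPM, the usual count scaling, here to the nuclear-encoded total of each cell), L4R8M (54364), L4R1 (52375) and L4L8M (52244). In L4R11M it stood at 16862 CPM and in L4L3M at 29862 CPM, against 1425 to 115187 CPM (median 5009) in the 33 others, so the groups overlapped. In L4L3M the leading genes were Mapk11, encoding a p38 kinase, at 133528 CPM, the transcription factor gene Meis1 at 118961 CPM and the neuronal microtubule regulator Stmn3 at 57781 CPM. In L4R11M they were Atp5a1, a subunit of ATP synthase, at 65934 CPM and Azi2 at 61955 CPM. These leading genes were picked after their values were seen.

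General neuronal genes, a list of 20 that includes tubulins, stathmins and synaptic proteins, were found in part in every one of these 1-month cells: 2 of 20 had a count in L4L3M, 3 in L4R8M, 5 in L4R1, 6 each in L4L4M and L4R11M, and 12 in L4L8M. Summed, the list reached 91770 CPM in L4L3M, 40925 in L4R11M, 26282 in L4L8M, 22398 in L4R1, 7289 in L4R8M and 101 in L4L4M. The 33 other cells of that age lay between 22587 and 47766 CPM (median 28210), so 3 cells were below that range, 1 was above it and 2 were within it. Isl1 and Pou4f1, the transcription factors that mark the sensory neuron lineage, were at 0 in all 6, with 111.5 CPM and 169 CPM as the medians of the other 1-month cells. With 4119 to 5938 nuclear-encoded counts in L4L3M, L4R11M and L4R1, a 0 at such levels says little in these cells. Stmn2 alone made up nearly all of the list in L4R11M, at 39788 CPM, and Stmn3 with the synuclein gene Sncg (33989 CPM) all of it in L4L3M. The label of neuron thus rests on few transcripts in these cells.

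Glial messages were present in some of the 1-month cells and absent in others. Satellite glia markers summed to 34392 CPM in L4R8M, 4547 in L4R1, 2289 in L4L8M, 568.4 in L4R11M, 14.4 in L4L4M and 0 in L4L3M, against 0 to 3982 CPM (median 436.5) in the others. In L4R8M this was Apoe, an apolipoprotein abundant in satellite glia (12525 CPM), Sparc, a secreted matrix protein (12578 CPM), and the glycolytic enzyme gene Aldoc (9236 CPM). In L4R1 nearly all of it was Fabp7, a fatty acid binding protein of satellite glia, at 4210 CPM. Schwann cell markers summed to 39628 CPM in L4R8M, 25957 in L4R11M, 5388 in L4L8M, 1357 in L4L4M, 168 in L4R1 and 0 in L4L3M, against 683 to 3984 CPM. The value of L4R11M came from 1 myelin gene, Pmp22, at 25957 CPM. L4R8M alone held 4 or more markers of both glial lists, with Pmp22 at 16315 CPM and the myelin gene Prx at 13657 CPM.

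Stress lists differed from one another in the 1-month cells: 2 were not detected, and others were high in single cells. All 16 immediate early genes, the transcription factors and regulators that are switched on within minutes of stimulation, were at 0 in all 6, and so were all 18 cell death and p53 target genes. The other 33 cells had 6.62 to 2823 CPM and 372.5 to 1815 CPM of these lists. Pooled over the 6 cells, 0 counts allow at most 14.54 CPM of either list (upper end of the exact 95% Poisson interval, counting error only), against pooled levels of 820.5 CPM and 699.4 CPM in the other cells. This limit is too tight, because it takes repeated reads of few messages as independent. L4L8M and L4L4M also held most of the pooled counts, so it says little about the other cells. L5R1M, with 4314 nuclear-encoded counts, had 695.4 CPM of immediate early genes and 463.6 CPM of cell death genes. Heat shock genes, which encode protein-folding chaperones, summed to 12052 CPM in L4L4M, 8929 in L4L8M, 2863 in L4R1, 1237 in L4R8M, 1137 in L4R11M and 0 in L4L3M, against 8163 to 15315 CPM. In L4L4M that sum was Hspa8 (6798 CPM) and Hsp90ab1 (5254 CPM), both constitutive chaperones. Integrated stress genes reached 12367 CPM in L4R8M, all of it the endoplasmic reticulum chaperone Hspa5, against 269.8 to 2730 CPM in the others. Mitochondrial stress and quality control genes reached 11474 CPM in L4L4M, most of it the mitochondrial chaperonin Hspd1 (7592 CPM), against 2085 to 4293 CPM in the others. No immune marker and no endothelial marker had a count in any of the 6 cells. Fibroblast markers summed to 8605 CPM in L4R8M, 6841 in L4L4M and 808.9 in L4L8M, against 0 to 434.1 CPM in the others. They came from 3, 2 and 1 of 8 markers in these cells, and the list was at 0 in L4R11M, L4R1 and L4L3M.

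Over all 68 cells, the 1-month cells dominated the gene-by-gene comparison. A gene was tested where at least 25% of cells had a count, and counted as different where the medians of log2(CPM + 1) differed by at least 1, or 2-fold, with the same sign in each group holding at least 3 cells of each kind. Of 14065 genes tested, 6 were higher (0.0427%) and 7659 lower (54.5%) in the mitochondria-rich cells. The median over all genes tested was −3.38, so single-gene values have to be read against that shift. The 6 higher genes were Gm10800 (7.34), Gm26917 (3.85), Mir6236 (2.71), Gm15564 (2.40), Gm26461 (1.70) and Gm15266 (1.27), where the numbers are log2 differences of medians. They are predicted or non-coding features, and Gm26917 and Mir6236 belong to the list of ribosomal RNA-like features. The largest negative differences were those of Sult4a1 (−10.22), Ncdn (−9.95), Kif21a (−9.75), Ttll7 (−9.73), Serinc1 (−9.72) and Eno2 (−9.71), among them a neuronal sulfotransferase, a neurite outgrowth protein, an axonal kinesin and the neuronal enolase. Of the 20 general neuronal genes 17 were lower and 0 higher, with a median of −5.03, and of 11 satellite glia markers tested 0 passed in either direction, with a median of 0. The results below concern the 1-year cells.

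At 1 year the mitochondria-rich cells had a smaller share of neuronal and a larger share of glial messages than the other cells. The comparison used the 5 mitochondria-rich cells and the 21 other 1-year cells with at least 100000 nuclear-encoded counts (128101 to 22354272), and left out R14L, R21S and R19L, which had 28493, 1367 and 274. This subset was chosen after the data were seen. Genes detected were 14492 in R5L, 12321 in R8S, 12026 in L2, 9566 in R10S and 6550 in R12L. After thinning to 100000 counts they were 8617 in R5L, 8030 in R8S, 7774 in L2, 6040 in R10S and 3247 in R12L, against 6959 to 10071 (median 9179) in the others. R5L, R8S and L2 lay within the range of the others, and R10S and R12L below it. Of 16234 genes tested, 1345 were higher (8.29%) and 7720 lower (47.6%), and the median over all genes was −0.92. Counts of list genes at 1 year have to be read against these shares. In 53 genes (0.326%) all 5 cells lay above all 21 others, and in 232 (1.43%) all 5 lay below.

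General neuronal genes were lower in all 5 cells than in any of the 21 others. The summed list reached 3331 CPM in R8S, 4689 in R5L, 6171 in R12L, 7938 in L2 and 15907 in R10S, against 16477 to 33555 CPM (median 21983), a difference of medians of −1.83 on the log2 scale. Pooled over the cells, it was 7705 CPM (95% exact Poisson interval 7659 to 7752, counting error only) against 22740 CPM (22713 to 22766). Of the 20 genes 15 were lower and 0 higher, beside 47.6% and 8.29% of all genes, with a median of −2.08 against −0.92 over all genes. R10S stood closest to the other cells and R8S farthest.

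Tubb3, the neuronal beta-tubulin, had 139 CPM in L2, 165 in R8S, 525 in R5L, 633 in R12L and 1583 in R10S, against 1977 to 8667 CPM (median 4272). Stmn3 had 294 CPM in R8S, 502 in R5L, 563.5 in R10S, 973 in L2 and 1182 in R12L, against 1231 to 3130 CPM (median 2076). Syn1, which coats synaptic vesicles, had 2.44 CPM in R8S, 8.34 in R12L, 25.3 in R5L, 149.6 in L2 and 205 in R10S, against 239.5 to 3724 CPM (median 516.5). These 3 genes and Isl1 did not overlap between the groups. Isl1 was at 0 in R12L and at 1.40 CPM in R8S, 4.48 in R10S, 12.4 in L2 and 20.4 in R5L, against 34.3 to 541 CPM (median 187). Its partner Pou4f1 overlapped, from 0 in R12L to 100.5 CPM in R10S against 16.1 to 281 CPM. Most neuronal messages were still detected: 20 of the 20 genes had a count in L2, R10S and R5L, 19 in R8S and 17 in R12L. Of the remaining genes, Syp, Elavl3, Map2, Syt1 and Gng3 were not 2-fold different, and Syt1, a synaptic vesicle calcium sensor, had medians in the opposite direction (0.90).

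Sensory subtype markers did not give 1 common identity to the 5 cells. Neurofilament subtype markers, which mark large myelinated neurons, summed to 5021 to 7581 CPM against 4910 to 51173 CPM (median 17890). Within that list the neurofilament genes Nefh (−2.32), Nefm (−2.47) and Nefl (−2.09) were lower, and Ntrk2, the BDNF receptor gene, was higher (4.54), with 207 CPM in R12L, 260.3 in R10S, 664 in L2, 901 in R5L and 1317 in R8S against 0.543 to 995 CPM. Non-peptidergic markers were highest in R10S (2137 CPM) and L2 (1910 CPM), where Mrgprd, a receptor of that subtype, reached 299 CPM and 755 CPM. Every one of these 4 subtype lists overlapped between the groups.

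**Figure D3:**
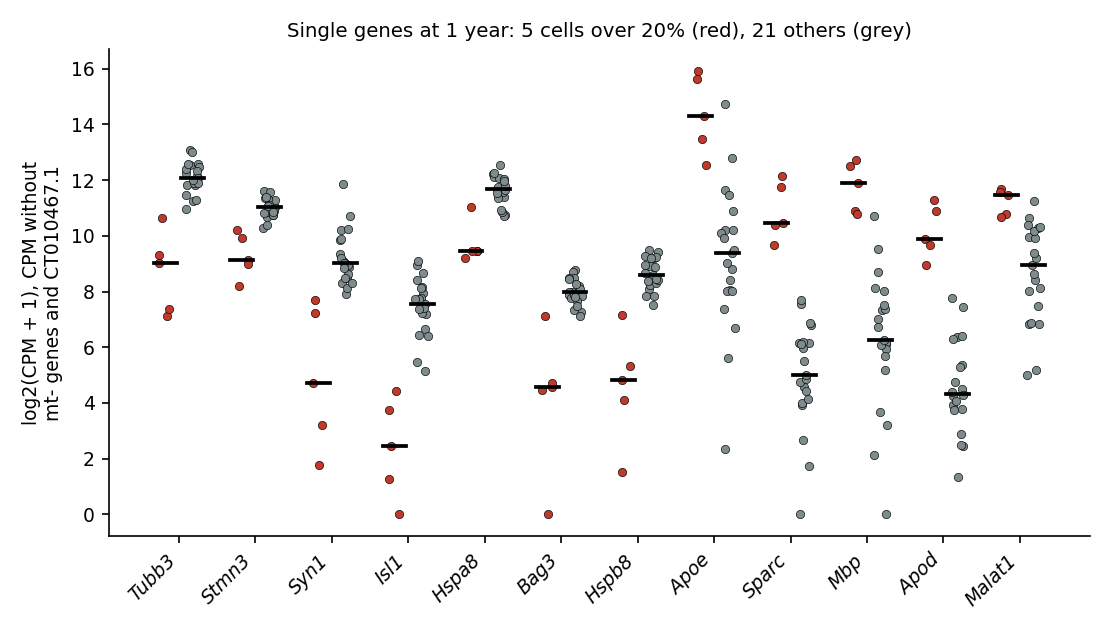
Single genes at 1 year on the log2(CPM + 1) scale, CPM computed without mt- genes and CT010467.1; each point is 1 cell, 5 mitochondria-rich cells in red and 21 others in grey, and black bars are medians. Tubb3, Stmn3, Syn1, Isl1, Bag3 and Hspb8 lie wholly lower in red and Sparc, Mbp and Apod wholly higher, while Hspa8, Apoe and Malat1 overlap.

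Satellite glia markers were higher in the mitochondria-rich cells at 1 year. The 12 genes summed to 76128 CPM in R8S, 63790 in R5L, 22552 in R12L, 14552 in L2 and 10831 in R10S, against 398 to 28372 CPM (median 956), a difference of 4.56 on the log2 scale. Of the 12 genes 9 were higher and 0 lower, beside 8.29% and 47.6% of all genes, with a median of 4.83. R8S and R5L lay above all 21 others. R14L, left out for depth, had 13337 CPM, above R10S, with a mitochondrial share of 1.82%. Among the deep cells the groups overlapped through 1 cell, R18ML, at 28372 CPM with a mitochondrial share of 1.18%. R18ML was also the only other deep 1-year cell with 1 RNA sample, and set against it alone the difference was −0.33.

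Apoe accounted for most of this sum, with 61434 CPM in R8S, 50281 in R5L, 20306 in R12L, 11364 in L2 and 5970 in R10S, against 4.10 to 27538 CPM (median 673). In R18ML, Apoe alone held 27538 CPM. Sparc did not overlap: 4511 CPM in R8S, 3420 in R5L, 1403 in R10S, 1345 in L2 and 817 in R12L, against 0 to 206 CPM (median 30.8). Fabp7 had 1777 CPM in R8S, 972 in R5L, 574 in L2, 162 in R10S and 0 in R12L, against 0 to 92.7 CPM. Sox10, the transcription factor of peripheral glia, had 326 CPM in R5L, 227.5 in R8S, 78.9 in L2, 54.5 in R10S and 0 in R12L, against 0 to 54.6 CPM.

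The breadth of the glial signal differed among the 5 cells. All 12 satellite glia markers lay above the highest other cell in R8S and 11 in R5L, whereas 7 did in L2, 5 in R10S and 2 in R12L. In R12L 6 of the 12 were at 0, among them Fabp7, Ednrb, Sox10, Ttyh1, Kcnj10 and Slc1a3, and only Cdh19 (1306 CPM) and Sparc exceeded every other cell. Kcnj10, the potassium channel that marks satellite glia, and Slc1a3, a glutamate transporter, exceeded the other cells in R8S (194 and 174 CPM) and R5L (350.0 and 186 CPM) only.

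Schwann cell markers were higher in all 5 cells than in any of the 21 others. Of the shallow cells left out, R14L (5264 CPM) and R19L (7299 CPM) lay above R12L, and R21S was at 0. The summed list reached 19745 CPM in R10S, 18757 in R8S, 8074 in L2, 5819 in R5L and 4815 in R12L, against 541 to 4161 CPM (median 1823), a difference of 2.15. Of the 12 genes 10 were higher and 0 lower, beside 8.29% and 47.6% of all genes, with a median of 5. Mbp, a structural protein of myelin, had 6701 CPM in R8S, 5797 in R10S, 3814 in L2, 1905 in R12L and 1763 in R5L, against 0 to 1663 CPM, without overlap. Prx, which organises the Schwann cell around the myelin sheath, had 1932 CPM in R10S, 1231 in R8S, 1003 in R12L, 923.5 in L2 and 129.8 in R5L, against 0 to 320.1 CPM. S100b, which is also expressed by the neurons here, was not different (−0.71).

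The balance of the 2 glial lists was not the same in each cell. In R10S Schwann cell markers exceeded satellite glia markers (19745 against 10831 CPM), whereas in R5L satellite glia markers were the larger sum (63790 against 5819 CPM). R8S was high in both. Sox10 occurs in both glial types, and sums compare lists of different genes, so the order holds within a list across cells and not as a ratio of cell types. CPM are shares of 1 library, so more glial RNA and less neuronal RNA cannot be told apart, nor can RNA of an attached glial cell and glial genes read in the neuron itself.

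**Figure D4:**
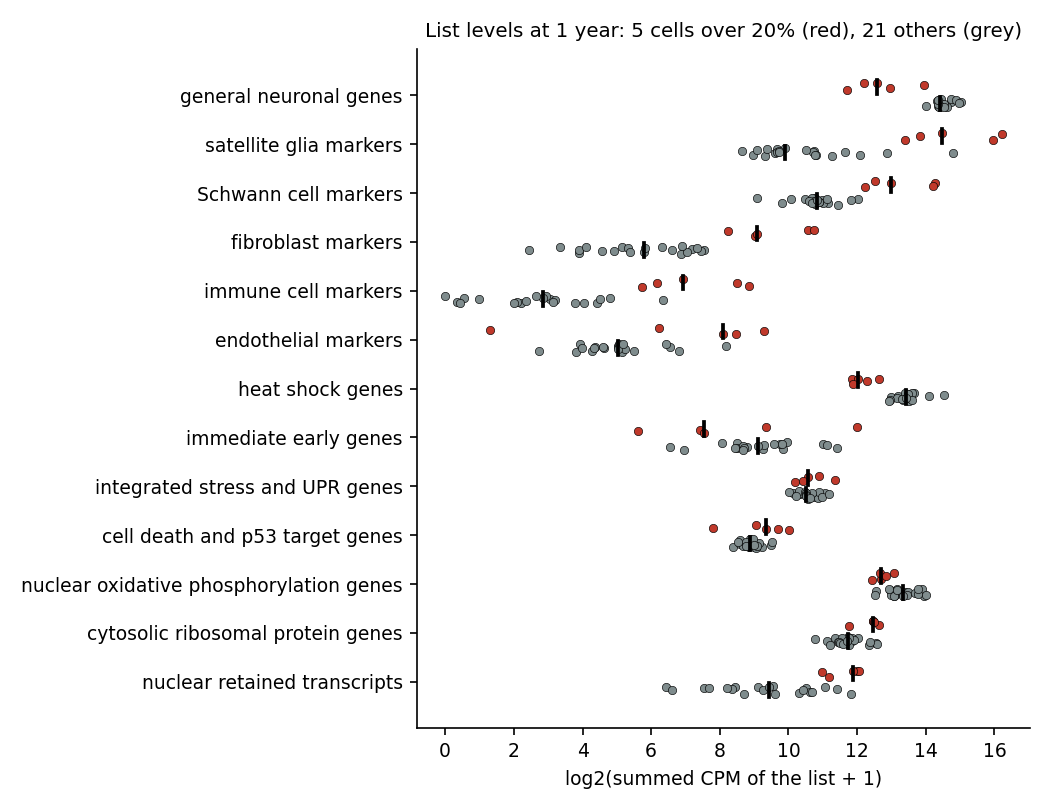
Summed level of 13 gene lists at 1 year on the log2(CPM + 1) scale; each point is 1 cell, 5 mitochondria-rich cells in red and 21 others in grey, with black bars for medians, and UPR stands for unfolded protein response. General neuronal and heat shock genes lie wholly lower in red, Schwann cell and fibroblast markers wholly higher, and integrated stress genes overlap with a difference of 0.03.

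Among markers of further cell types, fibroblast markers alone lay above the other cells in all 5. Fibroblast markers summed to 1707 CPM in R8S, 1514 in L2, 544 in R5L, 515 in R12L and 303 in R10S, all above the 4.40 to 184 CPM of the 21 others. Of 7 tested genes 5 were higher and 0 lower, with a median of 2.47, and Postn failed the filter. Over all genes 8.29% were higher and 47.6% lower, which also stands beside the counts for the further lists in this paragraph. Dcn, a collagen-binding proteoglycan, ranged from 140.4 CPM in R10S to 507 CPM in R12L against 0 to 171 CPM. Immune cell markers summed to 51.95 to 462 CPM (median 120) against 0 to 79.99 CPM (median 6.20), and R8S and R12L lay inside the range of the others. R14L, left out for depth, had 807.2 CPM, above all 5 cells, with a mitochondrial share of 1.82%. Of 4 tested immune genes 2 were higher, with a median of 2.30, and the macrophage genes Cd68, Aif1, C1qa and Tyrobp were at 0 in all 5. Endothelial markers ranged from 1.46 CPM in R5L to 624.6 CPM in R12L, against 5.61 to 292 CPM, with 3 of 5 tested genes higher, 1 lower and a median of 1.48, and the defining gene Cldn5 was at 0 in all 5. Erythroid markers overlapped (0 to 371 CPM against 0 to 78.1 CPM), and of 5 such markers 0 were higher and 1 lower, with a median of 0.

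Some genes outside the lists did not overlap either. The most abundant of the 53 higher genes were Mbp, Gpm6b, Ndrg1, Sparc, Qk, Apod, Sfi1, Hspg2, Ncam1 and Ucp2, named after their values were seen. Gpm6b, a membrane glycoprotein gene of glia and neurons, had 1061 to 3732 CPM against 0 to 178.5 CPM. Apod, a lipocalin known from Schwann cells after injury, had 494 to 2527 CPM against 1.52 to 216 CPM, and Ucp2, an inner-membrane carrier of mitochondria, 246 to 769 CPM against 0 to 109.5 CPM. Qk encodes an RNA-binding protein needed for myelin gene splicing and had 337 to 1147 CPM against 0 to 46.6 CPM. The most abundant of the 232 lower genes were Ndrg4, Tubb3, Ywhag, Klc1, Stmn3, Ywhah, Ncdn and Pfkp. They include a kinesin light chain (Klc1, 609 to 1320.0 CPM against 1420 to 4731 CPM) and the platelet-type phosphofructokinase (Pfkp, 2.79 to 176 CPM against 404.5 to 1794 CPM).

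Heat shock genes were lower, not higher, in the mitochondria-rich cells at 1 year. The summed list was 3703 CPM in R12L, 3779 in R8S, 4162 in R5L, 4967 in L2 and 6323 in R10S, all below the 7843 to 23634 CPM (median 10964) of the others, a difference of −1.40. Of the shallow cells left out, R21S (5121 CPM) and R19L (3650 CPM) were as low, and R14L had 6563 CPM. Of 14 genes 10 were lower and 1 higher, beside 47.6% and 8.29% of all genes. Their median was −2.27 against −0.92 over all genes. Hspa8 had 595.5 CPM in R5L, 702 in R8S, 705 in R12L, 707 in L2 and 2082 in R10S, against 1678 to 6001 CPM, so R10S alone overlapped. Bag3, a co-chaperone, had 0 to 137 CPM against 139 to 441 CPM, and Hspb8, its small heat shock partner, 1.90 to 140.0 CPM against 181 to 718 CPM, neither with overlap. Cryab was the 1 higher gene (3.41), with 654 CPM in R8S, 509 in R5L, 392.5 in R10S, 355 in L2 and 0 in R12L, against 0.543 to 284 CPM. Hspa1a, the classical inducible chaperone, had 62.7 CPM in R5L and 0 in the other 4 cells, against 0 to 67.5 CPM.

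Immediate early genes separated R5L from the other 4 cells. The list summed to 4049 CPM in R5L, 644 in R8S, 185 in R10S, 171 in L2 and 47.8 in R12L, against 92.4 to 2751 CPM (median 550.5), a difference of −1.57. R5L lay above every other cell and R12L below every other cell. Of the 16 genes 10 were lower and 0 higher, beside 47.6% and 8.29% of all genes, with a median of −3.12 against −0.92 over all genes. In R5L, 8 of the 16 exceeded the highest other cell, among them Fos (472.5 CPM against at most 192), Egr1 (548 against at most 176), Ier2 (481 against at most 112) and Egr3 (224 against at most 7.81). In the other 4 cells Fos ranged from 0 to 5.58 CPM and Dusp1, a phosphatase of the same early response, from 0 to 0.758 CPM, against 0.880 to 1357 CPM for Dusp1.

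Genes of the integrated stress and unfolded protein responses gave no common shift as a list. Their sum was 1155 CPM in R10S, 1364 in R8S, 1502 in L2, 1901 in R12L and 2604 in R5L, against 1043 to 2332 CPM (median 1470), a difference of 0.03. Of 14 genes 7 were lower and 0 higher, beside 47.6% and 8.29% of all genes. Their median of −0.84 was near the median of −0.92 over all genes. Asns, the asparagine synthetase induced by Atf4, had 1.14 CPM in R12L, 1.40 in R8S, 2.54 in L2, 57.1 in R10S and 172 in R5L, against 46.8 to 624.9 CPM. Hspa5, the main chaperone of the endoplasmic reticulum, had 180.0 to 676 CPM against 48.2 to 865 CPM and was not 2-fold different (0.72). Atf4 itself was not 2-fold different (0.99).

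Cell death and p53 target genes summed to 221 CPM in R12L, 529.5 in R10S, 645 in R8S, 824 in R5L and 1033 in L2, against 336 to 729.9 CPM (median 468), a difference of 0.46. R5L and L2 lay above all others and R12L below. Of 16 tested genes 10 were lower and 1, the anti-apoptotic Bcl2 (2.35), higher, beside 47.6% and 8.29% of all genes. The median was −2.08 against −0.92 over all genes. The median gene and the sum thus differ in sign, because abundant members such as Bcl2, Bcl2l1 and Ccng1 carry the sum. Bax, which permeabilises the mitochondrial outer membrane, was at 0 in R8S and R10S and at 9.48 CPM in R12L, 61.7 in R5L and 81.2 in L2, against 22.6 to 211 CPM. Antioxidant genes had 0 higher and 4 lower of 12, beside 8.29% and 47.6% of all genes, with a median of −0.59. Gclm, which sets glutathione synthesis, had 12.6 CPM in R5L and 0 in the other 4 cells, against 21.2 to 620.2 CPM, without overlap.

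Nuclear genes for mitochondrial proteins were not higher as lists. The 26 nuclear-encoded subunits of oxidative phosphorylation summed to 5528 to 8636 CPM against 5841 to 16361 CPM (median 10237), a difference of −0.63. Of these genes 0 were higher and 4 lower, beside 8.29% and 47.6% of all genes, so fewer were lower than among all genes. Their median was −0.49 against −0.92 over all genes. Of 18 factors that copy, transcribe or process mitochondrial DNA, 15 were lower and 1 higher, beside 47.6% and 8.29% of all genes. The median of these factors was −3.59, but their sum overlapped between the groups. It was 414 CPM in L2, 449 in R12L, 497 in R8S, 619 in R5L and 938 in R10S, against 444.5 to 1085 CPM. L2 alone lay below the others. Polrmt, the mitochondrial RNA polymerase, was at 0 in R8S and R12L and at 3.40 CPM in R5L, 11.2 in R10S and 139 in L2, against 14.65 to 99.6 CPM. Ppargc1a, the coactivator of mitochondrial biogenesis, was the higher one (2.64), at 9.86 CPM in L2, 36.6 in R8S, 98.6 in R10S, 161 in R12L and 176 in R5L, against 0 to 112 CPM. Of 17 mitochondrial stress and quality control genes 11 were lower and 0 higher, with a median of −1.43, beside 47.6% lower and a median of −0.92 over all genes. Lonp1, the matrix protease, did not overlap, at 0 to 3.89 CPM against 5.36 to 87.45 CPM.

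The make-up of the mitochondrial RNA differed little. The large ribosomal RNA mt-Rnr2 took 65.5% of mitochondrial counts in R8S, 67.25% in R10S, 68.1% in L2, 69.6% in R12L and 71.9% in R5L, against 64.6% to 87.1% (median 73.2%) in the 21 deep others. Genes for mitochondrial proteins took 23.6% to 30.7% (median 27.2%) against 9.49% to 30.9% (median 21.65%), and the ranges overlapped. Among them mt-Co1, the catalytic subunit of cytochrome oxidase, led with 9.76% to 13.4% of mitochondrial counts in the 1-year cells. In the 1-month cells mt-Rnr2 took 68.7% to 88.4% and the protein genes 2.73% to 27.9%. The genes mt-Co2, mt-Co3, mt-Atp6 and mt-Atp8 each held at most 0.0042% of mitochondrial counts in any of the 11 cells. Near-identical copies of mitochondrial DNA lie in the nuclear genome, so counts of mitochondrial genes are uncertain.

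Those nuclear copies, listed here as mitochondrial pseudogenes, were higher in all 5 cells. The 12 summed to 30.35 CPM in R8S, 35.5 in R5L, 48.5 in R10S, 56.65 in L2 and 68.3 in R12L, all above the 0 to 29.1 CPM of the 21 others. Of 8 tested 6 were higher and 0 lower, beside 8.29% and 47.6% of all genes, with a median of 1.96. Because they share sequence with the genes that chose the cells, their counts are not independent of the rule. Within the 21 others alone, Spearman's correlation of their sum with the mitochondrial share was 0.729.

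Nuclear-retained transcripts were higher in these cytoplasmic libraries of mitochondria-rich cells. The 8 long non-coding RNAs summed to 2002 CPM in R8S, 2317 in R10S, 3733 in R5L, 4114 in L2 and 4279 in R12L, against 85.4 to 3581 CPM (median 697), a difference of 2.42. R5L, L2 and R12L lay above all others. Of 8 genes 4 were higher and 0 lower, beside 8.29% and 47.6% of all genes, with a median of 1.12. Malat1, which stays in the nucleus of most cells, had 1619 CPM in R8S, 1753 in R10S, 2821 in R12L, 3027 in R5L and 3286 in L2, against 31.1 to 2459 CPM (median 492). Meg3, an imprinted nuclear RNA abundant in neurons, had 79.2 CPM in R5L, 132 in R10S, 208 in R8S, 545 in L2 and 805 in R12L, against 0.362 to 488 CPM. Within the 21 others alone, Spearman's correlation of the mitochondrial share was 0.638 with this list, 0.434 with fibroblast markers, 0.318 with immune cell markers, 0.283 with satellite glia markers, 0.249 with Schwann cell markers and 0.0584 with general neuronal genes. These correlations are across cells that share animals and sequencing runs in unknown ways, and carry no p-value.

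Cytosolic ribosomal protein genes were higher as a sum, with overlap between the groups. The ribosomal protein list summed to 3472 CPM in R12L, 5587 in L2, 5614 in R5L, 5811 in R8S and 6306 in R10S, against 1751 to 6088 CPM (median 3419), a difference of 0.71. Of 20 genes 3 were higher and 1 lower, beside 8.29% and 47.6% of all genes. Their median was 0.56 against −0.92 over all genes. Rps4x had 361 to 777 CPM against 62.45 to 496 CPM (1.96). Glycolysis enzymes had 9 lower and 1 higher of 16, with a median of −1.18, which is near the 47.6% lower and the median of −0.92 over all genes. The neuronal enolase gene Eno2 had 3.79 CPM in R12L to 294 CPM in R10S against 122 to 1432 CPM. General cell genes such as actin and ubiquitin were close to level as a sum (−0.16). Of 12 such genes 2 were higher and 3 lower, beside 8.29% and 47.6% of all genes, with a median of −0.83.

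Nerve injury genes showed no common direction. Of 17 tested genes 4 were higher and 7 lower, beside 8.29% and 47.6% of all genes. Their median was −0.46 against −0.92 over all genes, and the sum overlapped fully (349 to 4960 CPM against 332 to 10738 CPM). Atf3, the transcription factor switched on in injured sensory neurons, had 26.2 CPM in R8S, 2.43 in R5L, 1.14 in R12L, 0.846 in L2 and 0 in R10S, against 2.48 to 932 CPM. L2 is the intact cell, so 4 injured cells were at or below 26.2 CPM. Gap43, a growth cone protein, had 871.8 CPM in R12L and 57.9 to 152 CPM in the other 4. Injury and mitochondrial share could not be compared in a test, with 1 intact mitochondria-rich cell at this age.

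As whole profiles the mitochondria-rich cells stood apart. Each cell was compared with the median of the deep other cells of its own age over 14065 genes. Spearman's correlation was 0.46 to 0.621 (median 0.521) in the 5 cells at 1 year and 0.726 to 0.95 (median 0.881) in the 21 others. The shallow 1-year cells left out had 0.589 (R14L), inside the range of the 5, 0.306 (R21S) and 0.153 (R19L). At 1 month it was 0.0699 to 0.257 in the 6 cells and 0.471 to 0.913 in the 33 others. No pair of cells agreed within sampling noise, so no cell was counted as a copy of another. R9M, just under the threshold, had 20961 CPM of general neuronal genes and 1756 CPM of satellite glia markers, both inside the range of the other cells.

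The low-input libraries, which the choice of cells did not use, held 1 library with a mitochondrial share over 20%. Their mitochondrial share was 1.19% to 3.55% in 17 libraries (median over all 18, 2.36%) and 40.5% in the second intact replicate at 12 months. That library had 458082 nuclear-encoded counts, the lowest of the 18, and general neuronal genes at 7708 CPM against 22642 to 34051 CPM in the others. Satellite glia markers were at 1083 CPM and Schwann cell markers at 2567 CPM, both within the range of the other libraries (355.6 to 5732 CPM and 1491 to 3082 CPM). Heat shock genes were at 3984 CPM against 8463 to 12685 CPM. Of its 2 merged RNA samples, one had the title number 222, next to 221 for the mitochondria-rich cell L2. Other libraries with numbers over 222 had shares of 1.19% to 3.52%.

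**Figure D5:**
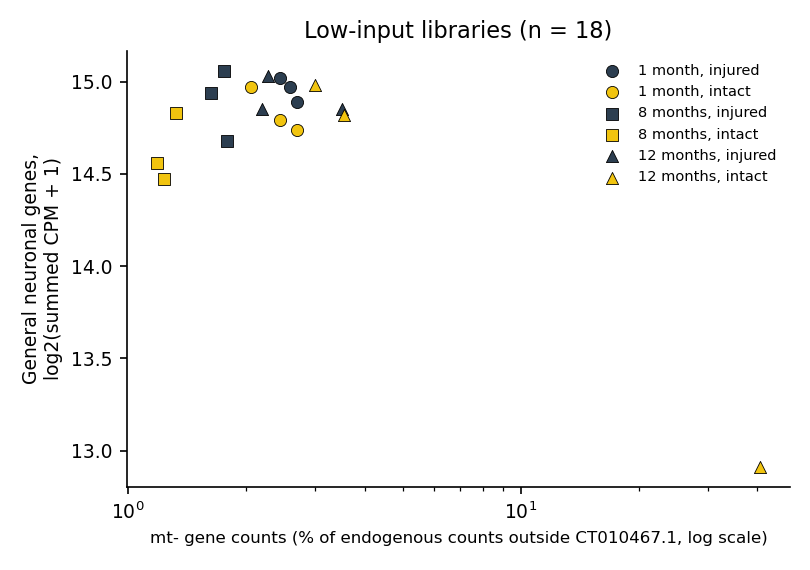
General neuronal genes (vertical, log2 of summed CPM + 1) against mitochondrial share (horizontal, percent, log scale) in the 18 low-input libraries, by age and nerve condition. A single library, the second intact replicate at 12 months, lies at 40.5% and the others lie between 1.19% and 3.55%.

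Across the 18 low-input libraries, 11 relations of the mitochondrial share were tested with an exact two-sided permutation test within groups, and none passed 0.05 after Benjamini-Hochberg adjustment. The relation to general neuronal genes had Pearson's r of −0.96 (permutation p = 0.031, adjusted p = 0.17) and Spearman's rho of −0.58 (permutation p = 0.0564, adjusted p = 0.31). Without the 2 libraries farthest from the median share, r was −0.27 (permutation p = 0.329, adjusted p = 0.899), and it was −0.31 without the library at 40.5% alone and −0.95 without the other of these libraries alone, so the relation rested on 1 library. Within the 9 intact libraries r was −0.98, and within the 9 injured ones, which exclude the library at 40.5%, it was −0.3. Heat shock genes had r of −0.95 (permutation p = 0.189, adjusted p = 0.346) and cell death genes r of −0.81 (permutation p = 0.0256, adjusted p = 0.17). Satellite glia markers had r of 0.27 (permutation p = 0.306, adjusted p = 0.385) and Schwann cell markers r of 0.48 (permutation p = 0.136, adjusted p = 0.346). The smallest p this design allows is 2.14e-05.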

How the data were processed

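RNA was measured in 69 single cells, of which 68 had counts, and in 18 low-input libraries. The authors deposited 1 table of raw read counts per gene for 87 columns; featureCounts 1.5.2 counted fragments over exons without strand against GENCODE vM16 per the file headers, and Trim Galore, STAR and the build mm10 are named in the submitters' processing notes, without versions. Several RNA samples of 1 name were merged into 1 column by the authors (136 RNA samples in all, 109 of them single-cell), per the file headers and the labels. The deposited table's other numeric column, used here only to describe genes, holds the summed exon length per gene. No column of values was left unused (0 columns).

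Counts were scaled here to CPM without mt- genes, ERCC features and CT010467.1 (chromosome 17, start 39846353, end 39848827) and taken as log2(CPM + 1). Without strand, overlapping and antisense genes cannot be told apart. Nuclear-encoded counts per cell ranged from 274 to 22354272, and low values carry little precision. The mitochondria-rich cells and all 26 gene lists were chosen with earlier results of these data known. The 1-year comparison at 100000 or more counts was chosen after seeing the data. Genes named are those of the lists, the 12 largest differences in each direction over all cells, mt- genes and CT010467.1; further ones are named as chosen after their values were seen. The procedure was tested on simulated data. Where the labels do not name separate animals, p-values over the 18 libraries measure only the spread between these samples. Same-numbered injured and intact libraries had correlated deviations over 0.1 in 3 of 9 pairs (−0.24 to 0.22), so numbers were not used as pairs. With deviations taken within groups of 3 libraries, this cannot show whether same-numbered libraries share an animal. Alternatives covered the threshold, denominator, pseudocount, filter, depth, thinning, pooling and leaving out each cell or library. Work was done in Python 3.11.15 with numpy 2.4.6, pandas 2.3.3, scipy 1.17.1 and matplotlib 3.10.9. DNA methylation data are not used here. A few genes of the lists are not reported here by name; they remain in the list sums and counts.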

Additional observations from a re-analysis of the deposited data

Results flagged for a closer look

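Within the mitochondria-rich cells, the highest or lowest cell of a list stood far from the rest in 10 of 54 groups examined with Dixon's criterion. The criterion flags about 1 in 20 groups by chance where values are independent and normally distributed. These groups share cells, and some lists were at 0 in most 1-month cells, so that rate is no yardstick here. Among the 5 cells at 1 year, R12L was lowest in cytosolic ribosomal protein genes (3472 CPM) and L2 was highest in ribosomal RNA-like and small RNA features (17446 CPM). Among the 6 cells at 1 month, L4L4M was lowest in general neuronal genes (101 CPM), and L4L3M was lowest in neurofilament subtype markers (0 CPM), heat shock genes (0 CPM), nuclear oxidative phosphorylation genes (0 CPM) and general cell genes (728.3 CPM). L4R8M was highest in peptidergic subtype markers (5342 CPM), L4L8M in tyrosine hydroxylase subtype markers (122.1 CPM) and L4R1 in erythroid markers (168.4 CPM). The last 3 lists were at 0 in the other 5 cells.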

How the results depend on the processing

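Moving the threshold to 30% left 7 cells, all endogenous counts as denominator left 4, and mt- protein genes alone left 2. At 1 year the alternatives were chosen after seeing the data. A 10% threshold gave differences of −1.47 (general neuronal) and 0.11 (cell death), and 836 higher genes. A 30% threshold gave −0.06 (cell death) and 2044 higher genes. With mt- genes in the denominator the values were −2.44 (general neuronal), 1.4 (Schwann), −1.89 (heat shock), −0.47 (integrated stress) and 0.08 (cell death). Against R18ML, the other deep 1-year cell with 1 RNA sample, they were −2.15 (general neuronal), −0.33 (satellite glia), −0.94 (heat shock), −3.47 (immediate early) and 0.76 (cell death). Injured cells alone gave −0.25 for immediate early genes, and a pseudocount of 10 CPM left 4838 lower genes. Leaving out each mitochondria-rich cell in turn gave 1164 to 1936 higher and 6609 to 8102 lower genes, −2.03 to −1.65 for general neuronal genes, 4.24 to 5.31 for satellite glia and 1.91 to 2.75 for Schwann cell markers.

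Over all 68 cells, general neuronal genes (−1.71) moved to −0.51 at 10%, −2.47 with mt- genes in the denominator, −0.22 at 1 month, −0.45 in injured and 0 in intact cells of that age, and −2.03 in injured cells at 1 year. Satellite glia markers (4.04) were at 1.38 at 1 month and −5.35 in its intact cells, and Schwann cell markers (1.69) at 3.66 in injured and −0.11 in intact cells at 1 month. Heat shock genes (−1.55) were at −1.94 with mt- genes in the denominator, −2.54 as a mean, −2.6 at 1 month, −3.22 in its injured and −0.26 in its intact cells. Immediate early genes (−9.30) were at −3.25 at 10%, −12.62 and −6 with pseudocounts of 0.1 and 10 CPM, −1.81 at 100000 or more counts, −5.22 as a mean, 0.01 pooled, −0.26 in injured cells at 1 year and −1.57 in deep cells at 1 year. Integrated stress genes (−0.33) were at −2.93 at 30%, −3.13 as a mean, −8.51 at 1 month, −3.11 in its injured and −10.24 in its intact cells. Cell death genes (−9.00) were at −0.85 at 10%, −12.32 and −5.7 with those pseudocounts, −4.8 as a mean, 0.19 at 100000 or more counts, 0.19 pooled, 0.32 in injured cells at 1 year and 0.46 in deep cells at 1 year. Nuclear retained transcripts (1.27) were at −1.06 as a mean, −6.21 at 1 month, −7.54 in its injured and −4.99 in its intact cells. The 6 higher genes became 17 at 30%, 910 at 100000 or more counts and 713 after thinning, and the median difference in genes detected at fixed depth (−1829) became −5428 at 30%. The cells at 1 month hold 4119 to 131040 nuclear-encoded counts, which limits their list values, and the cause of the shifts was not tested.

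Among the low-input relations, values without centring were −0.04 (satellite glia) and −0.33 (immediate early). Without the 2 libraries farthest from the median share r was −0.22 (satellite glia), 0.02 (heat shock), 0.3 (integrated stress), 0.08 (ribosomal protein) and 0.22 (genes detected). Leaving out 1 or 2 libraries gave −0.97 to −0.27 for general neuronal genes, −0.22 to 0.4 for satellite glia, −0.97 to 0.05 for heat shock, −0.92 to 0.36 for integrated stress, −0.95 to 0.04 for oxidative phosphorylation, −0.09 to 0.78 for the CT010467.1 share and −0.89 to 0.3 for genes detected. The ends nearest to 0 or past it came without the second intact replicate at 12 months, alone or with 1 other library: −0.2 for satellite glia and 0.05 for heat shock without it alone. With the replicate block r was −0.96 for general neuronal genes, 0.25 for satellite glia and 0.55 for Schwann cell markers, without a p-value. Whether the numbers pair the libraries is not known. Among the recomputed values of these comparisons, 405 were labelled the same, 51 moved and 22 reversed. For low-input relations that label asked only for the same sign and the same side of 0.05 after adjustment, whatever the size of r. A list difference was called reversed only where its main value was at least 1 in size, so sign changes of smaller ones are not in that count.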
